A study of Mus musculus with 10 samples.

Results

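The genes described here are the integrin subunits and laminin chains measured in whole 4T1 mammary tumors. They were taken by gene symbol, as every gene named Itga or Itgb with its number or letter and every gene named Lama, Lamb or Lamc with its number, and 37 of the 17864 genes of the count table matched. They fall into 8 leukocyte integrins, 5 epithelial integrins, 13 stromal and broadly expressed integrins and 11 laminin chains. The matching used gene names and no measured value. Enough reads for a test were found for 36 of the 37 genes. The exception was Itgad, a leukocyte integrin alpha subunit, with between 0 and 11 counts per tumor.

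Integrins are receptors of an alpha and a beta subunit that hold cells to the matrix or to other cells and signal through kinases and adaptors at the inner face of the membrane. Itgb2 and Itgb7 encode the beta subunits particular to leukocytes, the products of Itga6 and Itgb4 anchor epithelial cells through hemidesmosomes, and integrins with the product of Itgav bind vitronectin, fibronectin and latent TGF-beta. Laminins are trimers of an alpha, a beta and a gamma chain that form the basement membrane under epithelia and around vessels, and they are ligands of several of these integrins.

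Tumors were grown from cells of 4T1, a mammary carcinoma line of the mouse, that carried Cas9 and either a control guide RNA (sgCon, 5 tumors) or a guide RNA against Wwtr1, the gene of the Hippo pathway transducer TAZ (sgTaz, 5 tumors). In the methods, a mammary fat pad of female mice aged 6 to 8 weeks received 100000 cells. The methods name SCID and BALB/c mice, and the labels do not give the host of these tumors or the time of harvest. Cas9 was present in both groups, no selection of a clone is described, and RNA came from the whole tumor, so that host cells with an intact Wwtr1 contributed to every value. Keratin genes of the tumor epithelium were abundant in both groups, with a mean of 928 CPM (counts scaled to a common library size) for Krt8 in sgCon tumors and 711 CPM in sgTaz tumors.

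Total counts per tumor ranged from 14753922 to 19595821 (sgCon) and from 12185383 to 18395558 (sgTaz). The targeted gene, Wwtr1, was at 115 to 192 CPM in sgCon tumors and at 86.6 to 139 CPM in sgTaz tumors, with 1 of 5 sgTaz tumors inside the sgCon range. The estimated log2 fold change was -0.59 ± 0.15 (SE), with an edgeR adjusted p of 0.096. Markers of other cells moved with the groups. All 6 B cell markers and all 5 T cell markers were lower in sgTaz tumors, the summed B cell markers lying at 58.9 to 765 CPM in sgCon tumors and at 0.891 to 171 CPM in sgTaz tumors. All 6 macrophage markers were higher, and all 6 tumor epithelium markers were lower, and the summed levels of both lists overlapped between the groups. Because tissue was measured whole, fewer cells of a type and less RNA per cell cannot be told apart in any value below.

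The comparison of sgTaz with sgCon tumors asks which integrins and laminins differ when TAZ is targeted in the tumor cells. No integrin or laminin gene passed the edgeR quasi-likelihood test after Benjamini-Hochberg adjustment over the 14816 genes tested, where 0.00675% of all genes, a single gene, passed. At an unadjusted p below 0.05, 10 of the 36 members passed, or 27.8%, against 21.8% of all genes. Of these 10, 8 were higher in sgTaz tumors (Itgav, Itgax, Itga8, Itgb8, Lamc1, Itga9, Itga1 and Lamb2) and 2 were lower (Itgb7 and Lamb3). Among all genes, 9.86% were higher and 11.9% were lower by the same rule. The adjusted p of these 10 members ranged from 0.0896 for Itgav to 0.174 for Lamb2.

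The Wald test of DESeq2, which the study used, called more genes from the same counts. By DESeq2, 5 of the members rose at an adjusted p below 0.05 and none fell, and 6.87% of all genes were called, 3.38% higher and 3.50% lower. The 5 were Itgav, Itgax, Itga8, Itgb8 and Lamc1. With limma-voom and sample quality weights, 6 members rose and 2 fell, and 10.4% of all genes were called, 4.63% higher and 5.80% lower. These were the same 5 and Itga9, which rose, with Lamb3 and Itgb6, which fell.

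**Figure D1:**
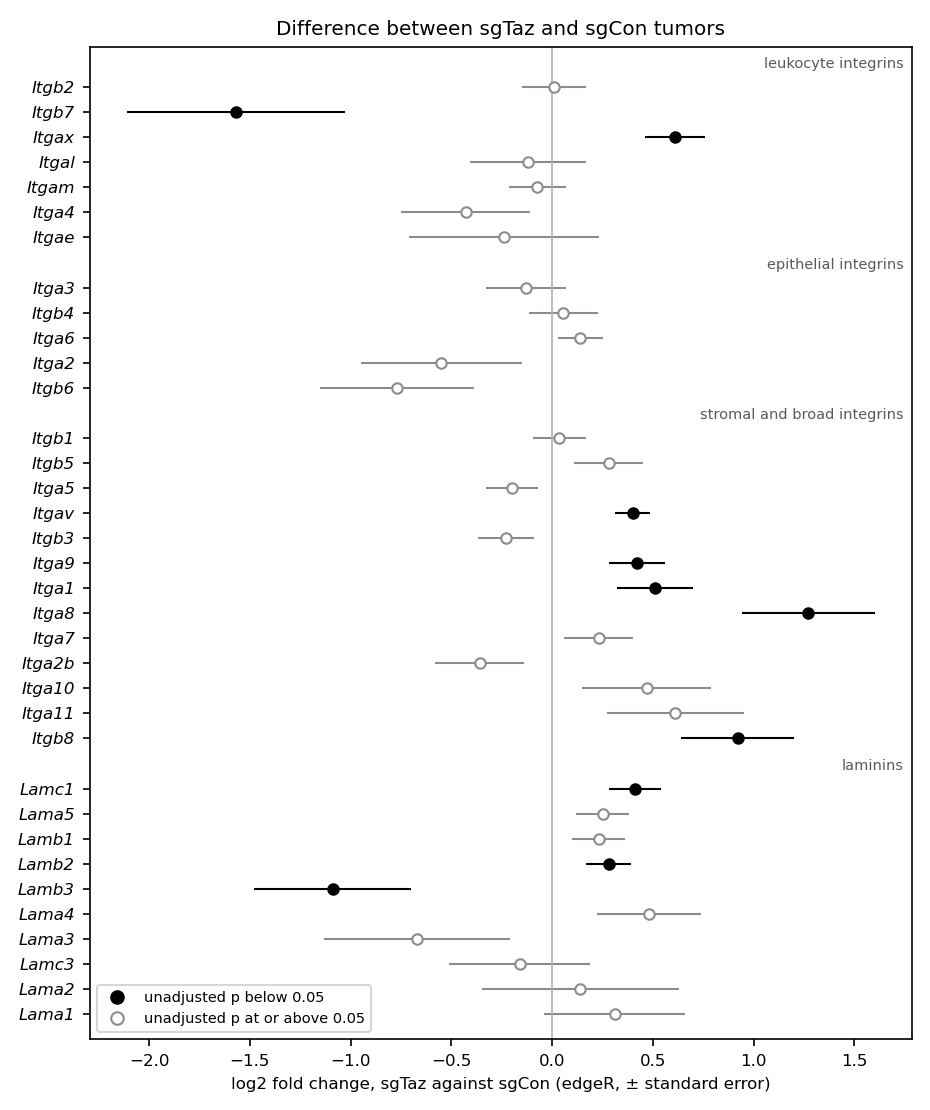
Log2 fold change of 35 of the 36 members tested, sgTaz against sgCon tumors (5 tumors each), by class. Points are edgeR estimates and lines their standard errors, filled points have an unadjusted p below 0.05, and the filled points above 0 are mostly stromal and broad integrins (5 of 8), with Itgb7 and Lamb3 below 0.

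Stromal and broad integrins had the highest median of the classes. Their median log2 fold change was 0.40 over 13 genes, of which 10 were higher in sgTaz tumors. It was -0.13 over the 5 epithelial integrins, -0.12 over the 7 leukocyte integrins tested and 0.23 over the 11 laminin chains. Over all genes tested it was -0.019, and 47% of them were higher in sgTaz tumors. At an unadjusted p below 0.05, 5 stromal and broad integrins were higher and none lower, and no epithelial integrin passed in either direction. Among leukocyte integrins 1 was higher and 1 lower, and among laminins 2 were higher and 1 lower. By the same rule 9.86% of all genes were higher and 11.9% lower. Whether the classes differ from each other was not tested.

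Levels between genes were compared as mean CPM per kilobase of exons, since longer genes collect more reads. In sgCon tumors Itgb1, the beta subunit shared by most matrix-binding integrins, was highest at 299 CPM per kilobase. Itga3, an alpha subunit that binds laminin, followed at 163 CPM per kilobase. Itgb5, Lamc1, Lama5, Lamb1 and Itgb2 lay between 46.6 and 65.9 CPM per kilobase, and the tumor ranges of these neighbours overlapped. Itgb8, at 0.218 CPM per kilobase, and Lama1, at 0.203 CPM per kilobase, were lowest among the members tested. In sgTaz tumors the levels per length of Itgb1 and Itga3 were 307 and 148 CPM per kilobase. The leukocyte subunit Itgb2 was at 46.9 CPM per kilobase there, against 46.6 in sgCon tumors.

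**Figure D2:**
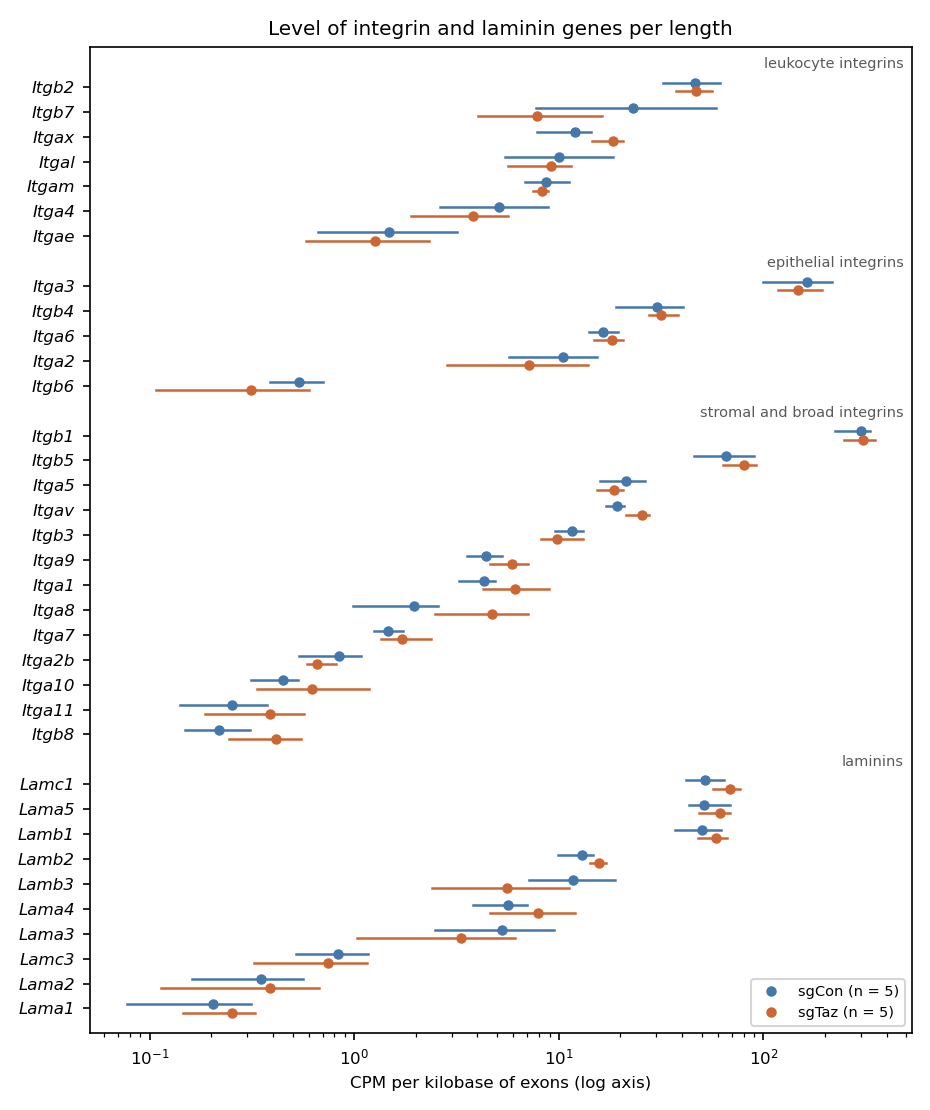
Level of 35 of the 36 members tested in CPM per kilobase of exons on a log axis, by class and in the order of the sgCon mean. Points are group means and lines run from the lowest to the highest of 5 tumors, with Itgb1 at 299 in sgCon and 307 in sgTaz tumors at the upper end and Lama1 at 0.203 and 0.252 at the lower end.

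Promoter sequence is shown for the 2 members whose groups did not overlap, Itgav and Itgax, and for the 2 members with an unadjusted p below 0.05 that were lower, Itgb7 and Lamb3. The sequences are the 250 bases before the transcription start in RefSeq, build GRCm38.p6, and 23 of the 37 members had a start in that table. They were searched on both strands for GGAATG, the site of TEAD factors, which are the DNA-binding partners of TAZ, for TGANTCA, the site of AP-1, and for GAGGAAGT, a site of the myeloid factor PU.1. The motifs do not overlap each other in these sequences. Capitals mark a match.
Itgav: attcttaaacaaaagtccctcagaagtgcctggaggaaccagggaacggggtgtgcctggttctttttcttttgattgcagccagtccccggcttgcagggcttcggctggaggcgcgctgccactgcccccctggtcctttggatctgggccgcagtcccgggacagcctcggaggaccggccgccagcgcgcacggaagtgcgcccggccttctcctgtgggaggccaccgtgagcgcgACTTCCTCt
Itgax: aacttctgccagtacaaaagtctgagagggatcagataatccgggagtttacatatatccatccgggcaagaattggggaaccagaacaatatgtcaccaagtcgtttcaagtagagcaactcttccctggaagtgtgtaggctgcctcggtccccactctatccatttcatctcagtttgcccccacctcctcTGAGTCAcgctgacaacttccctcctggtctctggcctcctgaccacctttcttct
Itgb7: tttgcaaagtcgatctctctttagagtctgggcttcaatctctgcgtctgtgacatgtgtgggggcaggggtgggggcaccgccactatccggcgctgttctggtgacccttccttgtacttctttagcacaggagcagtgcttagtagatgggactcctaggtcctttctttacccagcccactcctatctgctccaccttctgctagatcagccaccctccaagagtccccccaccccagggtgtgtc
Lamb3: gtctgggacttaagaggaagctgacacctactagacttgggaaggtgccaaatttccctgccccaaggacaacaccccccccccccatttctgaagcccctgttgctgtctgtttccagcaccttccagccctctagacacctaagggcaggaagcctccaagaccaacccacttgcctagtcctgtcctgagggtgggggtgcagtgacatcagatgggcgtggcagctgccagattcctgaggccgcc
The Itgav window lies at chr2:83724147-83724396 on the plus strand and holds ACTTCCTC, the reverse of the PU.1 site, 9 bases before the start. The Itgax window lies at chr7:128129300-128129549 on the plus strand and holds the AP-1 site TGAGTCA 56 bases before the start. The Itgb7 window, at chr15:102231936-102232185 on the minus strand, and the Lamb3 window, at chr1:193301744-193301993 on the plus strand, hold none of the 3 motifs. A later start of Lamb3 in the same table has the TEAD letters, as CATTCC, 167 bases before it. Of that window 171 bases are exon, and it is not printed. The windows of Itga8 and Itgb8 were also examined and hold none of the 3 motifs. All 250 bases of each are exon, and they are not printed. Among all 32851 windows of the table, 12.6% hold the TEAD letters, 6.75% those of AP-1 and 2.44% those of PU.1. The 23 members in the table have 26 windows, of which 3 hold the TEAD letters, 1 those of AP-1 and 3 those of PU.1. The TEAD letters were found for Itga10, Itgb1 and Lamb3, those of AP-1 for Itgax, and those of PU.1 for Itga11, Itgav and Itgb6. A match of letters says nothing of binding.

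Itgav, the alpha subunit of the vitronectin and TGF-beta-activating integrins, had the smallest p of the members. It is on chromosome 2 from 83724397 to 83806916 (ENSMUSG00000027087.11). Its level was 220, 208, 182, 200 and 223 CPM in sgCon tumors 1 to 5 and 297, 287, 283, 269 and 228 CPM in sgTaz tumors 1 to 5. Every sgTaz tumor was above every sgCon tumor, narrowly in sgTaz 5. The means were 206 ± 16.7 CPM and 273 ± 27.1 CPM (SD, n = 5 each), and the log2 fold change was 0.40 ± 0.087 (SE), with an edgeR adjusted p of 0.0896 and a DESeq2 adjusted p of 0.00214. Without sgTaz 5 it was 0.46 with an edgeR adjusted p of 0.041, and Itgav was then the only member called, where 1.15% of all genes were. With the lymph node stroma score of each tumor as a covariate the log2 fold change was 0.20, with an adjusted p of 0.492, which was the highest over all settings. An antisense transcript, Gm13684, shares 634 exon bases with Itgav and was not in the table, and the strand setting of the counting is not stated.

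The partners of Itgav did not move as a set. Itgb8, the beta subunit that presents latent TGF-beta on the cell surface, was at 2.64, 2.3, 3.43, 2.05 and 1.64 CPM in sgCon tumors and at 3.12, 2.71, 6.05, 5.26 and 5.75 CPM in sgTaz tumors. In sgTaz 3 to 5 it was above every sgCon tumor, and sgTaz 1 and 2 lay inside the sgCon range. For Itgb8 the log2 fold change was 0.92 ± 0.28, with an edgeR adjusted p of 0.119 and a DESeq2 adjusted p of 0.0363 (0.028 to 0.399 over all settings), on counts of 24 to 113 per tumor. Itgb5, a vitronectin-binding beta subunit, ranged from 163 to 319 CPM in sgCon tumors and from 226 to 327 CPM in sgTaz tumors, with a log2 fold change of 0.28 ± 0.17. Itgb3, the beta subunit of the vitronectin and platelet fibrinogen receptors, had a log2 fold change of -0.23 ± 0.14, and 3 of 5 sgTaz tumors were below every sgCon tumor. Itgb6, an epithelial beta subunit that also activates TGF-beta, ranged from 2.74 to 5 CPM in sgCon tumors and from 0.764 to 4.26 CPM in sgTaz tumors. Itgb6 had a log2 fold change of -0.77 ± 0.38, with an edgeR adjusted p of 0.261 and a limma-voom adjusted p of 0.0338 (0.0338 to 0.639 over all settings).

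Itga8, which pairs with beta 1 in smooth muscle and mesenchymal cells and binds nephronectin, had the largest fold change among the members that were higher. It was at 15.4, 13, 7.24, 17.3 and 18.9 CPM in sgCon tumors and at 50.5, 24, 51.8, 28 and 18.3 CPM in sgTaz tumors. All sgTaz tumors but sgTaz 5 lay above the sgCon range, and sgTaz 1 and 3 were highest. The mean was 14.4 ± 4.55 CPM against 34.5 ± 15.6 CPM (SD, n = 5 each), a log2 fold change of 1.27 ± 0.33 or 2.41-fold, with an edgeR adjusted p of 0.096 and a DESeq2 adjusted p of 0.00479 (0.00479 to 0.613 over all settings). The highest of these came with the score of lymph node stroma as a covariate, where the log2 fold change was 0.50. An antisense gene, E030013I19Rik, shares 372 exon bases with Itga8 and had 44 counts over all tumors.

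Of the other subunits that pair with beta 1, the tenascin-binding Itga9 was at 30, 40.6, 33.2, 38.1 and 27.5 CPM in sgCon tumors and at 39.5, 35.3, 54.2, 50.9 and 46.1 CPM in sgTaz tumors. The lowest sgTaz tumors, 1 and 2, were inside the sgCon range. Its log2 fold change was 0.42 ± 0.14, with an edgeR adjusted p of 0.142 and a limma-voom adjusted p of 0.0411 (0.0411 to 0.463 over all settings). The collagen-binding Itga1 was at 86.8, 90.2, 60.6, 89.7 and 71.3 CPM in sgCon tumors and at 90.8, 78.8, 119, 167 and 113 CPM in sgTaz tumors. All but sgTaz 2 exceeded the sgCon tumors, sgTaz 1 by a narrow margin and sgTaz 4 by the widest. The log2 fold change of Itga1 was 0.51 ± 0.19 with an edgeR adjusted p of 0.163, and it was 0.33 without sgTaz 4. Gm49395 shares 685 exon bases with Itga1 on the same strand and had 66 counts in all.

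Itgb1 itself did not differ detectably. Its level was 1342, 1274, 914, 1225 and 1348 CPM in sgCon tumors and 1016, 1382, 1193, 1427 and 1243 CPM in sgTaz tumors. The groups overlapped over most of their range, with sgCon 3 lowest. The log2 fold change was 0.036 ± 0.13 and crossed 0 between settings. Itga5, the fibronectin receptor alpha subunit, had a log2 fold change of -0.20 ± 0.13, with levels of 78.2 to 130 CPM in sgCon tumors and 76 to 101 CPM in sgTaz tumors. The remaining stromal and broad integrins were the muscle laminin receptor Itga7 (0.23 ± 0.17), the collagen receptors Itga10 (0.47 ± 0.32) and Itga11 (0.61 ± 0.34), and Itga2b of the platelet fibrinogen receptor (-0.36 ± 0.22), all given as log2 fold change with SE. Their means were at or below 13.9 CPM in both groups, and none had an unadjusted p below 0.05. Itga10 was at 6.11 CPM in sgTaz 1 and at no more than 2.99 CPM in every other tumor, and its log2 fold change was 0.11 without sgTaz 1. With the score of lymph node stroma as a covariate that of Itga11 was 1.16, at an unadjusted p of 0.0194. Itga10 shares 1739 exon bases on the same strand with Gm42957, which was not in the table.

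Pdgfra, a receptor that marks fibroblasts and other mesenchymal cells, also rose by DESeq2. It had a mean of 83.9 CPM in sgCon and 179 CPM in sgTaz tumors, with a log2 fold change of 1.09 ± 0.26, an edgeR adjusted p of 0.096 and a DESeq2 adjusted p of 0.00234. Of the 6 fibroblast markers 4 were higher, 2 of them at an unadjusted p below 0.05, and the median log2 fold change of the list was 0.086. Summed, the list ranged from 1488 to 4609 CPM in sgCon tumors and from 1676 to 4586 CPM in sgTaz tumors. The 5 endothelial markers were all higher, none at an unadjusted p below 0.05, with summed levels of 328 to 408 CPM in sgCon and 257 to 545 CPM in sgTaz tumors. Platelet markers were limited to Pf4 and Ppbp, at 21.5 to 37.1 CPM in sum in sgCon and 12.2 to 31 CPM in sgTaz tumors. The part of these cells in the integrin values was not tested.

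**Figure D3:**
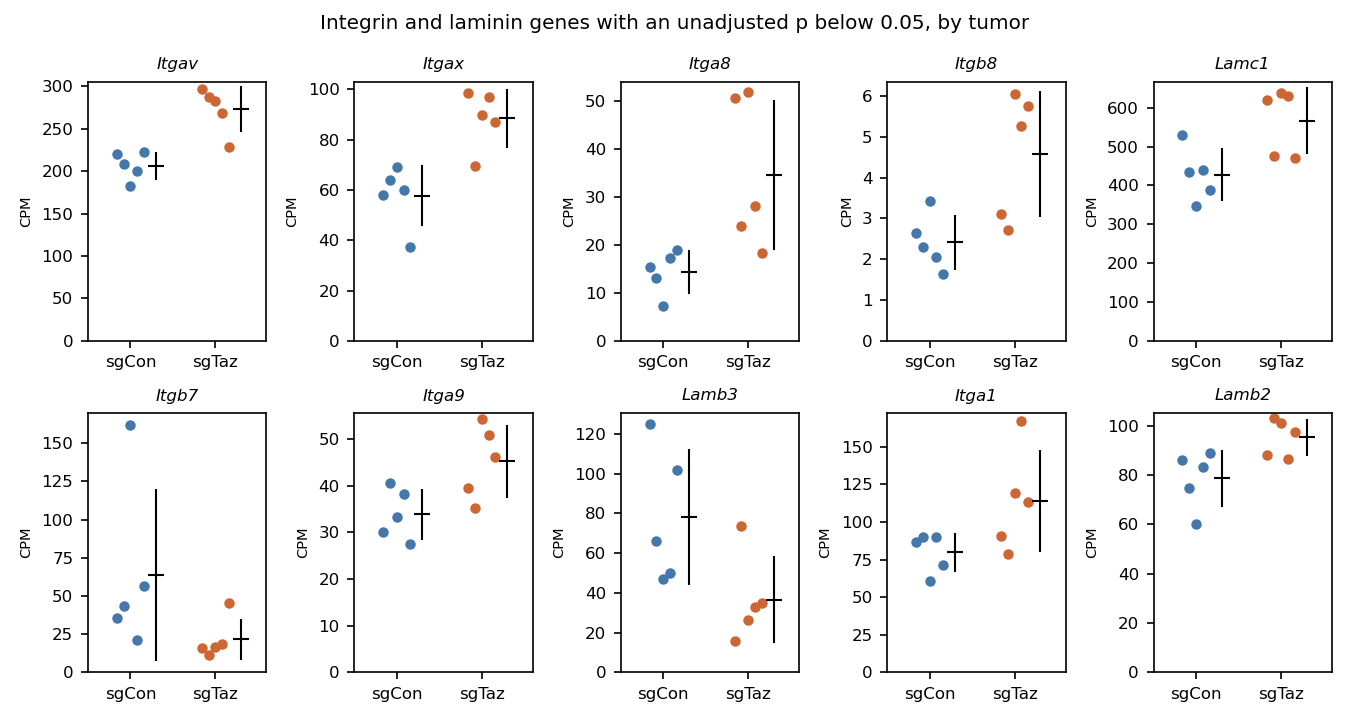
Level in CPM in each of 5 sgCon and 5 sgTaz tumors for the 10 members with an unadjusted p below 0.05, ordered by p. Points are tumors, the bar is the mean and the line 1 SD, and the groups are separate for Itgav and Itgax and overlap for the other 8.

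Epithelial integrins showed no difference at an unadjusted p below 0.05 in edgeR. Itga6, the laminin-binding alpha subunit, was at 176, 144, 144, 126 and 152 CPM in sgCon tumors and at 134, 186, 175, 167 and 155 CPM in sgTaz tumors. Itgb4, its hemidesmosomal partner, was at 284, 203, 134, 207 and 232 CPM in sgCon tumors and at 194, 269, 232, 204 and 203 CPM in sgTaz tumors. Both genes overlapped between the groups, with log2 fold changes of 0.14 ± 0.11 for Itga6 and 0.055 ± 0.17 for Itgb4. Itga3 ranged from 571 to 1237 CPM in sgCon tumors and from 671 to 1107 CPM in sgTaz tumors, with a log2 fold change of -0.13 ± 0.20. The collagen receptor Itga2 ranged from 40.5 to 110 CPM and from 20.3 to 98.9 CPM, with a log2 fold change of -0.55 ± 0.40. The lincRNA B230344G16Rik shares 537 exon bases with Itgb4 on the other strand and had 214 counts in all.

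These values stood beside a lower level of epithelial markers. The 6 tumor epithelium markers had a median log2 fold change of -0.42, 3 of them at an unadjusted p below 0.05, and their sum ranged from 1683 to 3645 CPM in sgCon and from 1354 to 2725 CPM in sgTaz tumors. With the tumor epithelium score as a covariate, an alternative chosen after the data were seen, the log2 fold change was 0.26 for Itga6 and 0.36 for Itgb4. It was 0.0059 for Itga2 and 0.20 for Itga3 there, which turned their direction. In that fit 5 epithelial and stromal integrins were higher at an unadjusted p below 0.05 and none lower, where 9.13% of all genes were higher and 12.3% lower. These 5 were the epithelial Itga6 and Itgb4 and, of those that also passed without the covariate, Itgav, Itga8 and Itgb8, whereas Itga9 and Itga1 had an unadjusted p of 0.0867 and 0.0869.

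Leukocyte integrins held both directions. Itgax, the alpha subunit that marks dendritic cells and macrophages, was at 57.9, 64.1, 69.1, 60.1 and 37.4 CPM in sgCon tumors and at 98.7, 69.7, 89.8, 97 and 86.9 CPM in sgTaz tumors. Every sgTaz tumor was above every sgCon tumor, by a margin of under 1 CPM for sgTaz 2 over sgCon 3. The mean was 57.7 ± 12.1 CPM against 88.4 ± 11.5 CPM (SD, n = 5 each), and the log2 fold change was 0.61 ± 0.15, with an edgeR adjusted p of 0.096 and a DESeq2 adjusted p of 0.00999 (0.00999 to 0.409 over all settings). It was 0.63 with the score of lymph node stroma as a covariate. Itgav and Itgax were the only members without overlap, 2 of 36, and 2.44% of all genes tested were higher without overlap. No member was lower without overlap, where 2.13% of all genes were.

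Itgb2, the common beta subunit of the leukocyte integrins that Itgal, Itgam and Itgax complete, was at 152, 141, 187, 98.4 and 132 CPM in sgCon tumors and at 140, 114, 146, 145 and 171 CPM in sgTaz tumors. Itgam, of the complement receptor of neutrophils and macrophages, was at 36.6, 53.2, 34.5, 56.2 and 36.8 CPM in sgCon tumors and at 37.7, 41.8, 44.3, 43.9 and 39 CPM in sgTaz tumors. For both genes all sgTaz tumors lay inside the sgCon range. Itgal, of the integrin that lymphocytes use to bind ICAM-1, was at 48.2, 61.6, 121, 36 and 61.6 CPM in sgCon tumors and at 63.1, 37, 61.4, 64.5 and 75.2 CPM in sgTaz tumors. The log2 fold changes were 0.010 ± 0.16 for Itgb2, -0.073 ± 0.14 for Itgam and -0.12 ± 0.29 for Itgal, each well within its error. Gm49368, an annotated gene that shares 3450 exon bases with Itgam on the same strand, had 184 counts in all.

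Itgb7, the beta subunit of the gut-homing and the E-cadherin-binding integrins of lymphocytes, was the member with the largest difference. It was at 35.4, 43.4, 162, 21.5 and 56.8 CPM in sgCon tumors and at 16, 11.2, 16.9, 18.5 and 45.1 CPM in sgTaz tumors. All sgTaz tumors but sgTaz 5 were below the sgCon range, and sgCon 3 was far above the other tumors. The log2 fold change was -1.57 ± 0.54 (0.337-fold), with an edgeR adjusted p of 0.142. It was -0.86 without sgCon 3 and -2.02 without sgTaz 5. The partners of Itgb7 differed less, with log2 fold changes of -0.43 ± 0.32 for Itga4, which also pairs with Itgb1, and -0.24 ± 0.47 for Itgae, which serves T cells and dendritic cells within epithelia. Itga4 ranged from 36.5 to 124 CPM in sgCon and from 26.5 to 78.9 CPM in sgTaz tumors, and it shares 1124 exon bases with Cerkl on the opposite strand, a gene with 195 counts in all. Itgae ranged from 3.06 to 14.5 CPM and from 2.67 to 10.6 CPM.

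Lymph node markers were highest and lowest in the same sgCon tumors as Itgb7. The 5 markers of lymph node stroma and high endothelium summed to 697 CPM in sgCon 3 and to 35 CPM in sgCon 4, with the other sgCon tumors between them. They summed to at most 7.45 CPM in sgTaz 1 to 4 and to 348 CPM in sgTaz 5, the sgTaz tumor with most Itgb7. All 4 that could be tested were lower in sgTaz tumors, none at an unadjusted p below 0.05. With the score of this list as a covariate, the log2 fold change of Itgb7 was 0.15, that of Itgae 1.07 and that of Itga4 0.48, each with its direction turned, and Itgb2 was at 0.39. In that fit 3 leukocyte integrins were higher at an unadjusted p below 0.05 and none was lower, where 5.29% of all genes were higher and 5.75% lower. The group and the score cannot be told apart in sgTaz 1 to 4.

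The other leukocyte lists differed as well. The 4 general leukocyte markers had a median log2 fold change of -0.69, with Ptprc at a mean of 398 CPM in sgCon and 219 CPM in sgTaz tumors. The 5 T cell markers had a median of -1.61, and they summed to 53.2 to 383 CPM in sgCon and to 36.4 to 107 CPM in sgTaz tumors. The 4 neutrophil markers tested had a median of -1.17, and the list summed to 164 to 666 CPM in sgCon and to 65 to 246 CPM in sgTaz tumors. Macrophage markers summed to 627 to 1471 CPM in sgCon and to 1250 to 1723 CPM in sgTaz tumors, with a median log2 fold change of 0.56 and 4 of 6 higher at an unadjusted p below 0.05. The 5 dendritic cell markers were split, 2 higher and 3 lower, with a median of -0.30. Only Ccr7 had an unadjusted edgeR p below 0.05 (log2 fold change -1.75 ± 0.68). Flt3, Xcr1 and Clec9a had means below 7 CPM in both groups. The part of these cells in the values of Itgax and Itgb7 was not tested.

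Ratios within a tumor do not depend on its library size, and 12 pairs of genes were compared with two-sided exact permutation tests. None passed after adjustment over the 12, where the smallest adjusted p was 0.0952. A pair that alone reaches the smallest exact p of this design cannot pass that adjustment. The lack of a call therefore does not show that the ratios were alike. The log2 ratio of Itgae to Itgb7 was -3.07 ± 0.44 in sgCon tumors and -1.88 ± 0.47 in sgTaz tumors (SD), with no overlap and an unadjusted exact p of 0.00794, the smallest that this design allows. The groups were narrowly apart, with sgCon 4 at -2.56 and sgTaz 1 at -2.53. The ratio of Itgax to Itgb2 differed by 0.61 on the log2 scale (exact p = 0.0159, adjusted 0.0952). That of Itgb2 to Ptprc, the common leukocyte gene, differed by 0.77 (exact p = 0.0397, adjusted 0.0952). It was lowest in sgCon 3 (-2.07) and sgCon 5 (-1.72), and among sgTaz tumors in sgTaz 5 (-1.10). Ptprc was highest in these tumors, at 787, 434 and 366 CPM. The ratio of Itga5 to Itgb1 differed by -0.22 (exact p = 0.0238, adjusted 0.0952).

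For the pairs Itgal and Itgb2, Itgam and Itgb2, Itga4 and Itgb1, Itga6 and Itgb1, Itgb4 and Itga6, Itgb4 and Epcam, and Lama5 and Lama4 the unadjusted exact p was at or above 0.238. The ratio of Itgb4 to Itga6 was 0.48 ± 0.34 in sgCon tumors and 0.43 ± 0.10 in sgTaz tumors. That of Itgam to Itgb2 was -1.71 ± 0.63 and -1.78 ± 0.25. Without sgCon 4, the adjusted p of Itgax to Itgb2 and of Itga5 to Itgb1 was 0.0476, with log2 differences of 0.75 and -0.28.

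**Figure D4:**
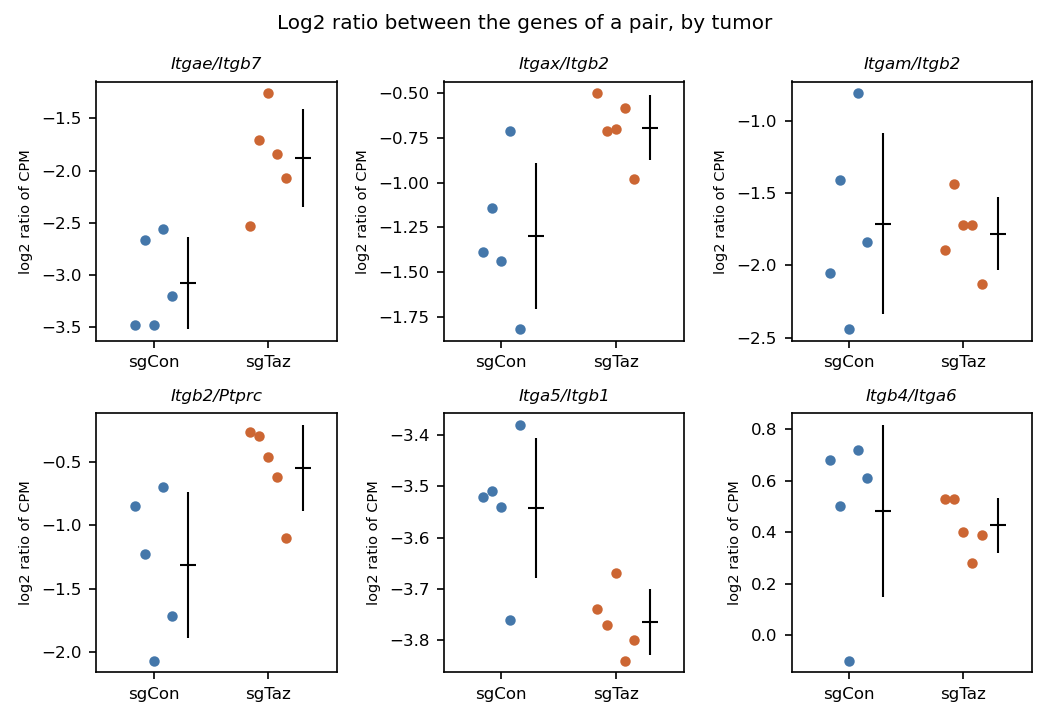
Log2 ratio of CPM between the genes of 6 of the 12 pairs in each of 5 sgCon and 5 sgTaz tumors. Points are tumors, the bar is the mean and the line 1 SD. The groups are separate only for Itgae to Itgb7, by a narrow margin, with means of -3.07 in sgCon and -1.88 in sgTaz tumors.

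Laminin chains lay on both sides of 0. Of the 11 chains 7 were higher in sgTaz tumors, where 47% of all genes were. Lama3 and Lamb3, an alpha and a beta chain of epithelial basement membranes, were lower. Lamc1, the gamma chain of most laminins, was at 529, 435, 346, 439 and 389 CPM in sgCon tumors and at 620, 477, 638, 629 and 471 CPM in sgTaz tumors. In sgTaz 1, 3 and 4 it was above every sgCon tumor. Its log2 fold change was 0.41 ± 0.13, with an edgeR adjusted p of 0.128 and a DESeq2 adjusted p of 0.044 (0.038 to 0.706 over all settings), and it was 0.17 with the score of lymph node stroma as a covariate.

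Lamb2, a beta chain of vascular and muscle laminins, was at 86.1, 74.8, 60.3, 83.4 and 89 CPM in sgCon tumors and at 88.3, 103, 101, 86.4 and 97.6 CPM in sgTaz tumors. The ranges touched, with sgTaz 1 and 4 just below the highest sgCon tumor. Its log2 fold change was 0.28 ± 0.11, with an edgeR adjusted p of 0.174. The partners of Lamc1 in laminin-511, the ubiquitous trimer of adult basement membranes, had log2 fold changes of 0.25 ± 0.13 for Lama5 and 0.23 ± 0.13 for Lamb1. Their levels were 494 to 780 CPM for Lama5 and 367 to 614 CPM for Lamb1 in sgCon tumors, and 552 to 780 CPM and 477 to 661 CPM in sgTaz tumors. Lama4, the alpha chain of vessel walls, had a log2 fold change of 0.48 ± 0.26 and was above every sgCon tumor in sgTaz 3 to 5.

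Lamb3 was the laminin with the largest difference. It was at 125, 65.9, 47, 49.9 and 102 CPM in sgCon tumors and at 15.8, 73.7, 26.3, 32.9 and 34.7 CPM in sgTaz tumors. All sgTaz tumors but sgTaz 2 were below every sgCon tumor, and sgTaz 2 was above 3 of them. The log2 fold change was -1.09 ± 0.39 (0.47-fold), with an edgeR adjusted p of 0.156 and a limma-voom adjusted p of 0.0269 (0.0269 to 0.462 over all settings). With the tumor epithelium score as a covariate, chosen after the data were seen, it was -0.53, with an unadjusted edgeR p of 0.0243. In that fit 12.3% of all genes were lower at an unadjusted p below 0.05.

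Lama3 ranged from 26.5 to 102 CPM in sgCon tumors and from 11.1 to 65.9 CPM in sgTaz tumors, and the groups overlapped. Its log2 fold change was -0.67 ± 0.46, with an edgeR adjusted p of 0.41, and it was -0.0093 with the tumor epithelium score as a covariate.

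Some epithelial genes of the list, picked after their values were seen, had their extremes in the same tumors. In sgTaz 1 each of Lama3, Lamb3, Itga2 and Itgb6 was the lowest of all 10 tumors, and in sgTaz 2 each of the 4 was the highest of the sgTaz tumors. In sgCon 3 all 4 were the lowest of the sgCon tumors. The other epithelial integrins, Itga3, Itga6 and Itgb4, were not the lowest of the 10 tumors in sgTaz 1. Among the sgTaz tumors alone, Itga6 and Itgb4 were lowest in sgTaz 1, and Itga3, at 873 CPM there, was below only sgTaz 2. All 5 epithelial integrins were the highest of the sgTaz tumors in sgTaz 2. In sgCon 3, 4 of the 5 were the lowest of the sgCon tumors. Over the 29 members tested that are not leukocyte integrins, sgCon 3 was the lowest sgCon tumor for 21, and it was the highest of all tumors for 5 of the 7 leukocyte integrins. Without sgTaz 2, 5 laminins had an unadjusted p below 0.05, 3 of them lower, where 13.4% of all genes were lower. Without sgTaz 5, 5 laminins also passed, 4 of them higher, where 8.59% of all genes were higher.

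Chains of low level were similar between groups within a wide error. The log2 fold changes were -0.16 ± 0.35 for Lamc3, 0.14 ± 0.49 for Lama2, a chain of muscle basement membrane, and 0.31 ± 0.35 for Lama1, a chain of embryonic basement membrane. Their means were at or below 6.32 CPM in both groups. With these errors a difference of the size seen for Itgav would not have been detectable in these chains.

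**Figure D5:**
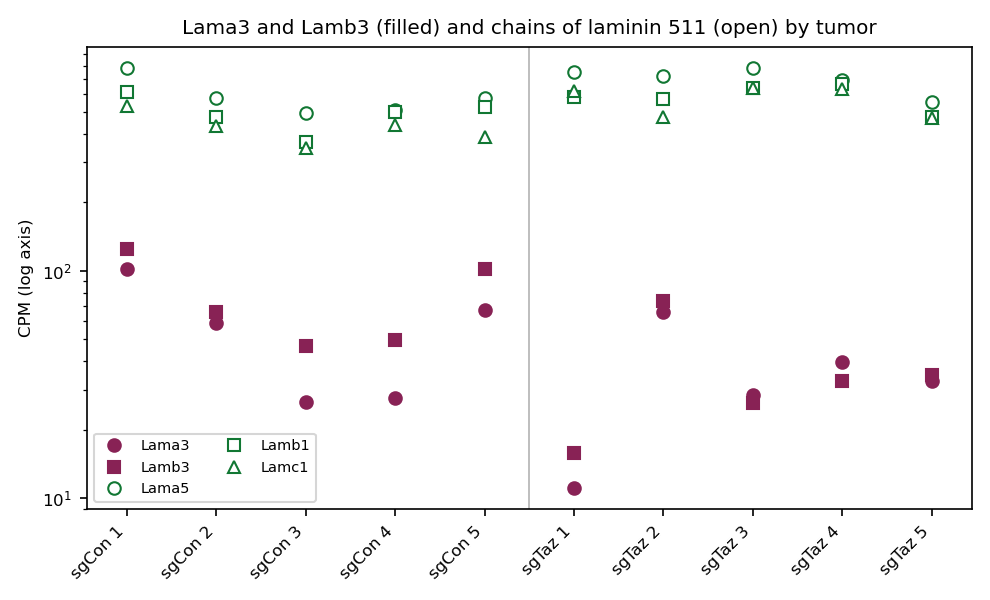
Level in CPM on a log axis of Lama3 and Lamb3 (filled) and the 3 chains of laminin-511 (open) in each of the 10 tumors. The filled symbols spread widely between tumors, with Lamb3 between 15.8 and 125 CPM, and the open symbols lie between 346 and 780 CPM.

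Of the 46 genes listed as ligands, adaptors, kinases and counter-receptors of these integrins, 45 were tested, and at an unadjusted p below 0.05 9 were higher and 5 lower in sgTaz tumors. That was 31.1% of the list against 21.8% of all genes, with a median log2 fold change of 0.11 and no gene past the edgeR adjustment. By DESeq2, 5 rose and 1 fell at an adjusted p below 0.05, where 3.38% of all genes were higher and 3.50% lower. The edgeR count at an unadjusted p below 0.05 was 7 without sgCon 5, 9 without sgTaz 3 and 8 without sgTaz 4. The share of all genes was not computed for these fits, so whether the lower counts are particular to the list cannot be told. Among the 19 activators and adaptors, 4 were higher and 3 lower by the unadjusted rule, where 9.86% of all genes were higher and 11.9% lower. Parva, which links integrin-linked kinase to actin, had a log2 fold change of 0.39 ± 0.10 without overlap (96.9 to 134 CPM in sgCon, 137 to 181 CPM in sgTaz). Tns3, a tensin of focal adhesions, was at 0.35 ± 0.097, and Parvg, the parvin of leukocytes, at -1.09 ± 0.38, and DESeq2 called all 3 (adjusted p = 0.0181, 0.0237 and 0.0442).

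The 2 adhesion kinases of the focal adhesion family differed in direction, with a log2 fold change of 0.24 ± 0.11 for the broadly expressed Ptk2 and of -0.63 ± 0.24 for Ptk2b, which leukocytes express, both at an unadjusted p below 0.05 and neither called by DESeq2. Among the 10 basement membrane and matrix ligands 8 were higher, where 47% of all genes were. Nid2, a nidogen that joins laminin to collagen IV, had an unadjusted p below 0.05 (log2 fold change 0.49 ± 0.20). Of the other laminin receptors and hemidesmosome genes, Dst was at 0.59 ± 0.16 and Dag1, the dystroglycan gene, at 0.29 ± 0.087, and both rose by DESeq2 (adjusted p = 0.013 and 0.0287). Among the counter-receptors of leukocyte integrins, Vcam1, a ligand of the integrin of Itga4 and Itgb1, was at 132 to 235 CPM in sgCon and at 204 to 364 CPM in sgTaz tumors and rose by DESeq2 (log2 fold change 0.57 ± 0.18, adjusted p = 0.0333). Cdh1, the E-cadherin that the integrin of Itgae and Itgb7 binds, had a log2 fold change of -0.72 ± 0.32. Madcam1, the ligand of the integrin of Itga4 and Itgb7, did not pass the filter on low counts.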

How the data were processed

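RNA of 10 whole 4T1 tumors (5 sgCon, 5 sgTaz) was sequenced by the authors, who mapped reads to GRCm38 with STAR and counted them per gene with Subread's featureCounts. The values deposited by the authors are raw counts per gene. Tool versions, the strand setting and the rule for genes in the table are not given in the sources used here. The table holds 5 further columns, which match no sample label and were not used. Symbols, coordinates and exon lengths came from GENCODE M21 (17860 of 17864 identifiers found).

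Counts were tested in R 4.3.3 with edgeR 4.0.16 (TMM, filterByExpr, quasi-likelihood test, Benjamini-Hochberg over 14816 genes, threshold 0.05), with DESeq2 1.42.0 and limma-voom (limma 3.58.1) as alternatives. CPM used TMM-scaled totals, log2 CPM a prior count of 2, and a marker score was the mean log2 CPM of its genes. Ratios were tested with exact permutations in Python 3.11.15. In each tumor 3 counts were 1.53e-05% to 2.46e-05% of the total, for counting error only. Scripts were tested on simulated data.

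The gene families, lists, motifs and pairs were chosen with earlier results of these data known, and the members of the families were then matched by symbol alone. Every tumor's value is given for members with an unadjusted p below 0.05 and for Itgb1, Itgb2, Itgam, Itgal, Itga6, Itgb4 and Lamc1, and up to 3 genes of a list are named by smallest p. Krt8, Ptprc, Madcam1 and 3 dendritic cell markers are named outside that rule, and 1 member is not reported here. Same-numbered tumors did not deviate together (r from -0.243 to 0.221), so no block was used. The labels do not say that each tumor came from its own mouse, so p-values measure the spread between these samples. Tumors of a group differed beyond sampling noise.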

Additional observations from a re-analysis of the deposited data

Results flagged for a closer look

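In 5 of 96 groups of 5 tumors examined (members and ratios, by group), 1 tumor lay far from the other 4, where chance alone gives about 4.8. The log2 CPM of Itgal was 5.21 in sgTaz 2, against 5.94 to 6.24 in the other sgTaz tumors. The log2 CPM of Itgax was 5.23 in sgCon 5, against 5.86 to 6.11 in the other sgCon tumors. The log2 CPM of Itgb1 was 9.84 in sgCon 3, against 10.26 to 10.40 in the others. The log2 ratio of Itgal to Itgb2 was -1.62 in sgTaz 2, against -1.24 to -1.15. The log2 ratio of Itgb4 to Itga6 was -0.10 in sgCon 3, against 0.50 to 0.72. Of the 5 values, 2 came from sgCon 3, 2 from sgTaz 2 and 1 from sgCon 5.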

How the results depend on the processing

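The count of members past an adjusted p of 0.05 was 0 in edgeR, 5 with DESeq2 and 8 with limma-voom, and 0 to 1 when a tumor was left out. It was 0 with other normalizations, filters, offsets, the replicate block and either covariate. At an unadjusted p below 0.05 the count of epithelial and stromal integrins was 5, against 10 with limma-voom and 2 with the score of lymph node stroma as a covariate, and 5 to 7 with a tumor left out. That of laminins was 3, against 6, 0 and, with the tumor epithelium score, 5, and 2 to 5 with a tumor left out. By the same rule 21.8% of all genes passed in edgeR, 30.8% with limma-voom, 11.0% with the score of lymph node stroma and 21.4% with that of tumor epithelium. That of leukocyte integrins was 2 to 3 in every setting, and that of the pathway list 14, or 7 to 15 with a tumor left out. For most fits with a tumor left out the share of all genes was not computed, so these ranges cannot be set against it. The tumor epithelium score was chosen after the data were seen. The cause of these changes was not tested.

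Direction held in all settings for 20 members. With the score of lymph node stroma as a covariate the log2 fold change turned for Itga2b (0.0053), Itga4 (0.48), Itgae (1.07), Itgal (0.65), Itgb1 (-0.032), Itgb4 (-0.16), Itgb7 (0.15), Lama5 (-0.018), Lamb1 (-0.03) and Lamc3 (0.13). With the tumor epithelium score it turned for Itga10 (-0.04), Itga2 (0.0059), Itga3 (0.20), Itgb2 (-0.11) and Lamc3 (0.24). With limma-voom it turned for Itgae (0.11), Itgal (0.097) and Itgb1 (-0.012), and with GC content and length offsets and the replicate block for Itgal (0.021), Itgam (0.017) and Lama2 (-0.027). With a tumor left out, values crossed 0 for Itgae (-0.58 to 0.24), Itgal (-0.28 to 0.22), Itgam (-0.14 to 0.038), Itgb1 (-0.045 to 0.10), Itgb2 (-0.096 to 0.14), Itgb4 (-0.064 to 0.18), Lama2 (-0.15 to 0.38) and Lamc3 (-0.37 to 0.038). The ratios that crossed 0 were Itgal to Itgb2 (-0.18 to 0.077), Itgam to Itgb2 (-0.25 to 0.15), Itgb4 to Itga6 (-0.20 to 0.0035) and Lama5 to Lama4 (-0.35 to 0.0096). Ranges were 0.48 to 0.75 for Itgax to Itgb2 and -0.28 to -0.18 for Itga5 to Itgb1.

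With the replicate block 0 members were called, 7 were higher and 3 lower at an unadjusted p below 0.05, and the pathway count was 13. The share of all genes was not computed for that fit, so these counts cannot be set against it. No sgTaz tumor correlated best with the sgCon tumor of its own number (r = -0.15, -0.243, -0.049, 0.0932 and 0.221), so the numbers were not read as pairs. The sign flips within numbers cannot give an exact p below 0.0625. The spread between 5 tumors limits every count here, and Itgb6, Itgb8, Itga10, Itga11, Lama1, Lama2 and Lamc3 also rest on under 40 counts in some tumor.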
